A study of Homo sapiens with 6 samples.

Results

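The 35 genes described here belong to the amino acid branch of the integrated stress response: the transcription factor ATF4, regulators it acts with, enzymes that make amino acids, transporters that import them, and aminoacyl-tRNA synthetases that load them onto tRNA. They were taken from a list of gene symbols drawn up with earlier results of these data known, and all 35 were found among the 60624 genes of the deposited table. All of them also passed the filter of a mean of at least 1 TPM (a transcript abundance corrected for transcript length and scaled to the same total in each library), which left 14778 tested genes. Levels were measured by RNA-seq in A549, an established human lung adenocarcinoma line. The comparison was between 3 libraries from cells transfected with siCEP20, an siRNA against the centrosomal protein gene CEP20, and 3 from cells transfected with the control siCTR, each for 3 days by the labels. No other treatment separated the groups. The labels name neither which CEP20 siRNA was used nor separate cultures, and 1 label field calls the treatment a plasmid transfection, so each result rests on a single line and on the spread between 3 libraries, which may be technical.

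When amino acids run short, or the endoplasmic reticulum is stressed, kinases phosphorylate the initiation factor eIF2, most protein synthesis slows, and ATF4 mRNA is translated through small upstream reading frames. ATF4 control is therefore largely translational, and its mRNA level is only a partial measure of its activity. Together with C/EBP partners, ATF4 binds composite elements in its target genes, which were first defined in stress and starvation responses. In lung adenocarcinoma cells this programme is known for supplying serine, glycine, asparagine and proline.

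CEP20 itself stood at 29.2, 30.5 and 35.1 TPM in the siCTR libraries and at 16.2, 15.3 and 17.3 TPM in the siCEP20 libraries. The groups did not overlap, and 51.4% of the control level remained (log2 fold change -0.92, SE 0.09, limma adjusted p = 0.0002054). The epithelial markers KRT8, KRT18, KRT19, EPCAM, CDH1 and CLDN4 all averaged at least 1 TPM in both groups, with summed levels of 3232 to 3302 TPM in siCTR and 4189 to 4370 TPM in siCEP20 libraries. Of 10 markers of other cell types only CD14 and COL1A1 reached a mean of 1 TPM, CD3E and DCN were among those listed at 0 in every library, and the summed level was 12.7 to 17.0 TPM in siCTR and 26.5 to 27.5 TPM in siCEP20 libraries, nearly all of the difference being COL1A1 (5.52 ± 0.333 against 18.9 ± 1.15 TPM, SD, n = 3). Whether any of this bears on the genes below was not tested, and in bulk RNA fewer cells of a type cannot be told apart from less RNA per cell.

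The elements that ATF4 binds can be seen in the promoters of many of these genes. In the RefSeq promoter table (GRCh38.p14, 250 bases before to 50 after each start), 30 of the 35 genes were found, with 46 start sites; PYCR1, PSPH, YARS1, LARS1 and SHMT2 were not in it. The core of the C/EBP-ATF response element, TGATGNAA on either strand, was present in 13 of the 46 promoters (28.3%), each from a different gene, and in 3.62% of all 35116 promoters. The windows below were picked from the 13 to show the core in genes that passed the test as lower and in genes that did not pass. CHAC1, ASNS, SLC3A2 and IARS1 had lower mRNA in siCEP20 cells, whereas SLC1A5, AARS1, GARS1 and MARS1 carry the same core and did not pass the test. With median-of-ratios scaling AARS1, GARS1 and MARS1 did pass as lower (limma adjusted p = 0.01145, 0.02235 and 0.001945). Capitals mark the core, and each window is written 5′ to 3′ on the strand where the core reads forward.
CHAC1 (chr15:40953251-40953280, minus strand): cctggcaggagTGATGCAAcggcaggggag
ASNS (chr7:97872458-97872487, minus strand): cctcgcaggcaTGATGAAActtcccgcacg
SLC3A2 (chr11:62881725-62881748, minus strand): ggagcTGATGTAAggagtcctgca
IARS1 (chr9:92293692-92293721, plus strand): gcgcacggaggTGATGCAAcgcgctgaaaa
SLC1A5 (chr19:46784893-46784922, minus strand): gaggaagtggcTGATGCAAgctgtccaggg
AARS1 (chr16:70289675-70289704, plus strand): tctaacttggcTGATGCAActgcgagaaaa
GARS1 (chr7:30594834-30594863, minus strand): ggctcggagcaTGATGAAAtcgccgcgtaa
MARS1 (chr12:57488053-57488082, minus strand): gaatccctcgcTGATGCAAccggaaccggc

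In ASNS the core ended 61 bases upstream of the RefSeq start of its promoter, in CHAC1 202 bases, in AARS1 180 bases and in SLC1A5 90 bases upstream. In SLC3A2 it lay inside the transcript and in MARS1 it spanned the start. The SLC1A5 start is an internal one, since the gene spans chr19:46774883-46788594 on the minus strand. The cores of SLC3A2, GARS1 and MARS1 also lay well inside the GENCODE spans of their genes. The matched letters were TGATGCAA in 9 of the 13 windows, TGATGAAA in 3 and TGATGTAA in 1. Of the 10 synthetase genes in the table, 7 held the core. It was present in 4 of the 10 genes with lower mRNA that the table holds (CHAC1, ASNS, SLC3A2 and IARS1) and in 9 of the other 20. This split depended on the scaling. With median-of-ratios scaling SLC1A4, AARS1, GARS1, MARS1, NARS1 and CARS1, which hold the core, also passed as lower. So did DDIT3, DDIT4, ALDH18A1, EPRS1 and STC2, in whose promoters the core was not found. A match describes letters only, and nothing follows from its absence.

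The antioxidant response element core, TGACNNNGC, which NRF2 binds with small MAF proteins, was found in 16 of the 46 promoters (34.8%), against 13.3% of all promoters. These belonged to 13 of the 30 genes, since TRIB3, whose overlapping promoters hold a single site, and TARS1 were counted more than once. It is shown for the light and heavy chain genes of a single transporter, which moved apart in these cells.
SLC3A2 (chr11:62881652-62881680, plus strand): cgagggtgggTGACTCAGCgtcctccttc
SLC7A5 (chr16:87869491-87869519, minus strand): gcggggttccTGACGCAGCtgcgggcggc
None of the 46 promoters held the endoplasmic reticulum stress element (CCAAT, 9 bases, CCACG), which 0.0769% of all promoters did, and no windows of the first 2 motifs overlapped.

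Across the 35 genes, 14 were lower and 3 higher in siCEP20 cells at a limma adjusted p under 0.05, and 18 did not pass. Among all tested genes 13.2% were lower and 30.2% higher, so lower calls made up a larger share of these genes, and higher calls a smaller share, than of all genes. With a fold change under 0.67 as well, 4 genes were called lower (ASNS, PHGDH, PYCR1 and SLC3A2), against 4.61% of all genes. With a fold change over 1.5, 0 were called higher, against 11.2%. In 18 genes every siCEP20 library lay below every siCTR library (17% of all genes), in 4 every one lay above (38.4% of all genes), and in 13 the groups overlapped. The median log2 fold change was -0.15, beside a median of 0.13 over all tested genes, a difference of -0.28. TPM values share a fixed total, and dividing them by median-of-ratios size factors brought the median of all genes to 9.4e-05. Of the 35 genes, 26 were then lower and 1 higher, where all tested genes split into 3185 lower and 2963 higher, against 1944 lower and 4457 higher without the scaling.

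**Figure D1:**
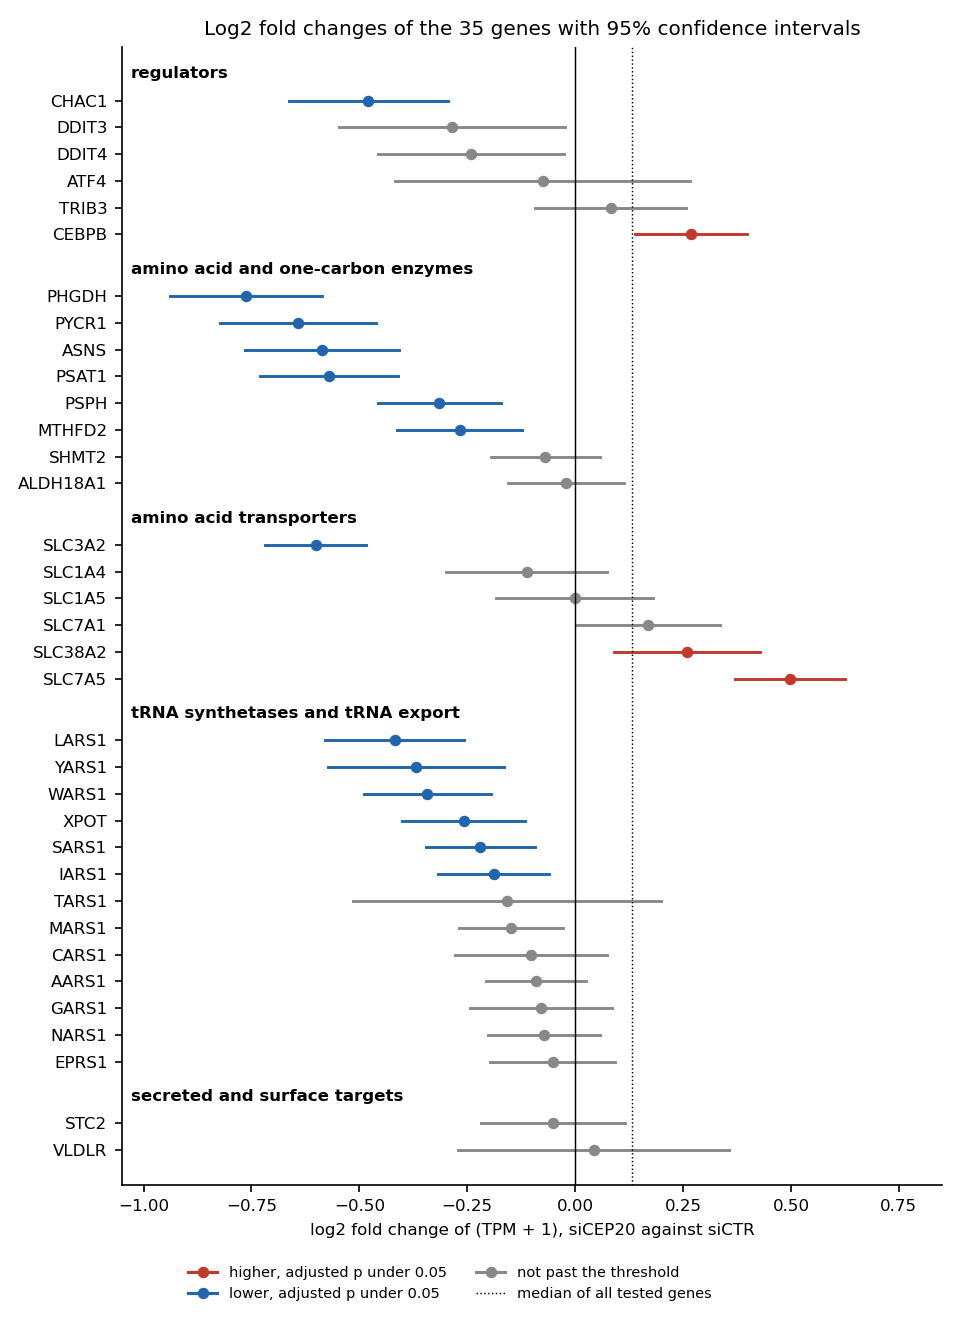
Log2 fold change of (TPM + 1) for each of the 35 genes, siCEP20 against siCTR (x axis), grouped by role, with points for the limma estimate, bars for its 95% confidence interval and a dotted line for the median of all tested genes (0.13). PHGDH lies lowest at -0.76 and SLC7A5 highest at 0.50, and all 13 genes of the tRNA group lie below 0.

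ATF4 (ENSG00000128272, chr22:39519695-39522683, plus strand) showed no detectable change in mRNA. Its level was 747, 524 and 773 TPM in siCTR and 730.1, 595 and 596 TPM in siCEP20 libraries. The groups overlapped, with siCTR 2 the lowest library of all, and the log2 fold change of -0.07 had a 95% interval from -0.42 to 0.27 (limma adjusted p = 0.7103). That interval includes the smaller changes among the other genes, such as those of YARS1 (-0.37), PSPH (-0.31) and SLC38A2 (0.26). Larger ones, such as those of PHGDH (-0.76), PYCR1 (-0.64) and SLC7A5 (0.50), lay outside it. The interval was wide, since the coefficient of variation of ATF4 was 20.2% in siCTR, among the widest of the 35 genes.

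The other regulators did not move together. CEBPB, a C/EBP factor that pairs with ATF4, was at 578, 585 and 633 TPM in siCTR and 687, 726 and 752 TPM in siCEP20 libraries. Every siCEP20 library was higher (log2 fold change 0.27, SE 0.06, limma adjusted p = 0.006034), although the call was lost with median-of-ratios scaling, where the log2 fold change was 0.12 (limma adjusted p = 0.08787). CHAC1, which degrades glutathione and is among the more selective ATF4 targets, was the only regulator that fell without rescaling (3 were lower with median-of-ratios scaling), from 81.8, 69.3 and 75.9 TPM to 52.0, 51.8 and 57.9 TPM. Its groups were separate and 71.3% of the control level remained (log2 fold change -0.48, SE 0.08, limma adjusted p = 0.002109).

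DDIT3, which encodes the stress factor CHOP, was at 223, 208 and 190.5 TPM in siCTR and 147, 163 and 202 TPM in siCEP20 libraries. The third siCEP20 library fell within the control range, and the log2 fold change of -0.29 did not pass (95% interval -0.55 to -0.02, limma adjusted p = 0.07419). Exons of DDIT3 overlap MARS1 and MBD6 on the opposite strand, and how reads of such a stretch were assigned depends on the strand setting of the quantification, which is not given in the sources used here. DDIT4, an inhibitor of mTORC1, was at 415, 499 and 379.7 TPM in siCTR and 359, 377 and 351 TPM in siCEP20 libraries, separate by a narrow margin (log2 fold change -0.24, limma adjusted p = 0.06778). TRIB3, a pseudokinase that restrains ATF4, was nearly level at 376 ± 35.3 and 397 ± 20.6 TPM (SD, n = 3), with a log2 fold change of 0.08 that turned to -0.07 with median-of-ratios scaling (95% interval -0.09 to 0.26 without it, limma adjusted p = 0.4148).

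The amino acid and one-carbon enzymes formed the group with the lowest median, at -0.44, or -0.57 relative to all genes. Of its 8 genes 6 fell and 2, SHMT2 and ALDH18A1, did not pass, where 13.2% of all tested genes were lower. With median-of-ratios scaling all 8 were lower, while lower calls over all 14778 tested genes went from 1944 to 3185. The summed level of the 8 dropped from 1622 ± 101 to 1202 ± 27.6 TPM (SD, n = 3), 74.1% of control. The serine pathway carried 3 of the 6. PHGDH (ENSG00000092621, chr1:119648411-119744218, plus strand), the first and committing step from glycolysis to serine, was at 114, 97.5 and 115 TPM in siCTR and 62.7, 62.1 and 66.0 TPM in siCEP20 libraries. Every siCEP20 value lay well under the lowest control, and the log2 fold change of -0.76 (SE 0.08, limma adjusted p = 0.0002108) was the lowest of the 35 genes.

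PSAT1, the transaminase that follows PHGDH, was at 395, 370.4 and 440.1 TPM in siCTR and 265, 281 and 263 TPM in siCEP20 libraries. The groups were far apart and the log2 fold change was -0.57 (SE 0.07, limma adjusted p = 0.0005099), just short of the fold limit. PSPH, the phosphatase that releases serine, fell less, from 77.8, 76.4 and 78.1 TPM to 58.3, 63.2 and 65.0 TPM (log2 fold change -0.31, SE 0.06, limma adjusted p = 0.004687). The next steps use serine. SHMT2, which splits serine into glycine and a one-carbon unit in mitochondria, was at 193 ± 8.36 and 184 ± 5.35 TPM (SD, n = 3) with overlapping groups (log2 fold change -0.07, 95% interval -0.20 to 0.06, limma adjusted p = 0.3433). It passed as lower with median-of-ratios scaling (log2 fold change -0.22, limma adjusted p = 0.006547). MTHFD2, which oxidises the one-carbon unit, fell from 292, 281 and 325 TPM to 241, 253 and 249.4 TPM (log2 fold change -0.27, SE 0.06, limma adjusted p = 0.01038).

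ASNS (ENSG00000070669, chr7:97851677-97872542, minus strand), which makes asparagine from aspartate and glutamine, was at 192, 185 and 210.0 TPM in siCTR and 124, 123 and 143 TPM in siCEP20 libraries. The groups were separate, with 66.5% of control remaining (log2 fold change -0.59, SE 0.08, limma adjusted p = 0.0007273). A long noncoding RNA gene on the same strand, ENSG00000284707, overlaps its exons and was lower too, at 35.7 ± 6.21 against 25.9 ± 4.49 TPM (SD, n = 3), so the division of reads between the pair is uncertain. In proline synthesis the last enzyme fell and the first did not pass. PYCR1 (ENSG00000183010, chr17:81932384-81942412, minus strand) was at 294, 245 and 294 TPM in siCTR and 177, 170.5 and 184 TPM in siCEP20 libraries, with no overlap (log2 fold change -0.64, SE 0.08, limma adjusted p = 0.0005143). ALDH18A1, which makes the precursor of PYCR1's substrate, was at 67.5 ± 2.78 and 66.5 ± 1.01 TPM (SD, n = 3), with an interval from -0.16 to 0.11 around a log2 fold change of -0.02 (limma adjusted p = 0.7992). It too passed as lower with median-of-ratios scaling (log2 fold change -0.17, limma adjusted p = 0.02623).

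**Figure D2:**
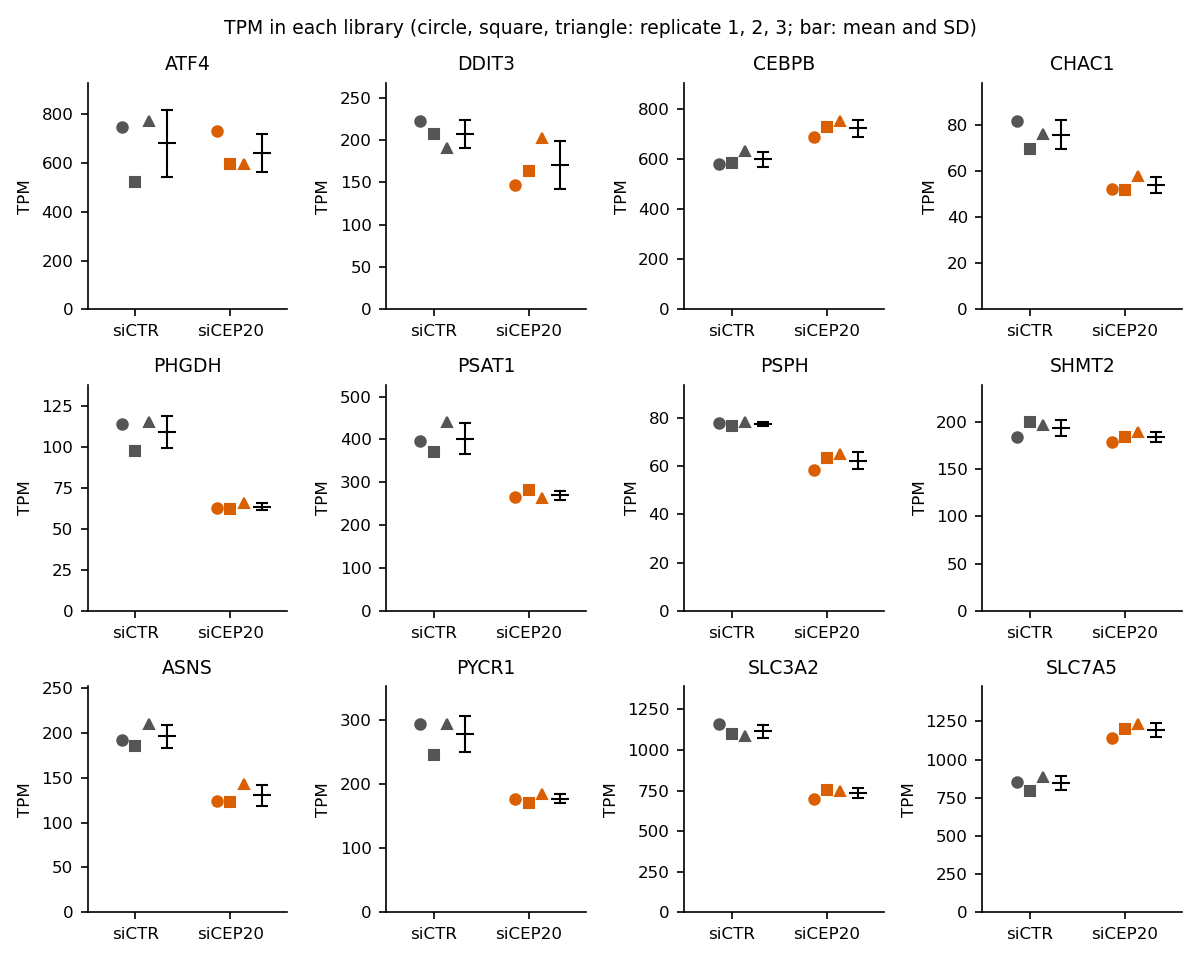
TPM of 12 of the genes in each of the 6 libraries (y axis, from 0), siCTR in grey and siCEP20 in orange, circle, square and triangle for replicates 1, 2 and 3, and a bar for the mean and SD. The groups overlap for ATF4, DDIT3 and SHMT2, CEBPB and SLC7A5 are higher in every siCEP20 library, and the other 7 genes are lower in every one.

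The transporters gave the widest contrast within a role, from -0.60 to 0.50 on the log2 scale. SLC7A5 (ENSG00000103257, chr16:87830023-87869507, minus strand), the LAT1 light chain that carries large neutral amino acids, was at 852, 797 and 886 TPM in siCTR and 1143, 1199 and 1235 TPM in siCEP20 libraries. Every siCEP20 library was above every control, with a log2 fold change of 0.50 (SE 0.06, limma adjusted p = 0.0003338), the highest of the 35 genes. SLC3A2 (ENSG00000168003, chr11:62856004-62888880, plus strand) encodes 4F2hc, the heavy chain that brings LAT1 and related light chains to the membrane, and was at 1161, 1098 and 1083 TPM in siCTR and 701, 754 and 748 TPM in siCEP20 libraries. It fell in every siCEP20 library (log2 fold change -0.60, SE 0.05, limma adjusted p = 0.0001034).

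The ratio of SLC7A5 to SLC3A2 mRNA, which no scaling of whole libraries can alter, was 0.733, 0.726 and 0.818 in siCTR and 1.63, 1.59 and 1.65 in siCEP20 libraries. The heavy chain mRNA was the more abundant in every control and the light chain mRNA in every siCEP20 library, and the mean ratio was 214% of control. Other pairs were also separate between the groups. PSAT1 to PSPH, which act in succession, went from 5.19 ± 0.404 to 4.35 ± 0.267 (SD, n = 3), 83.8% of control. PHGDH to SHMT2 went from 0.565 ± 0.0686 to 0.345 ± 0.00747, PYCR1 to ALDH18A1 from 4.13 ± 0.552 to 2.67 ± 0.0953, and CHAC1 to TRIB3 from 0.202 ± 0.0138 to 0.136 ± 0.0017 (SD, n = 3). These ratios were picked after their values had been seen and are given without a test.

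**Figure D3:**
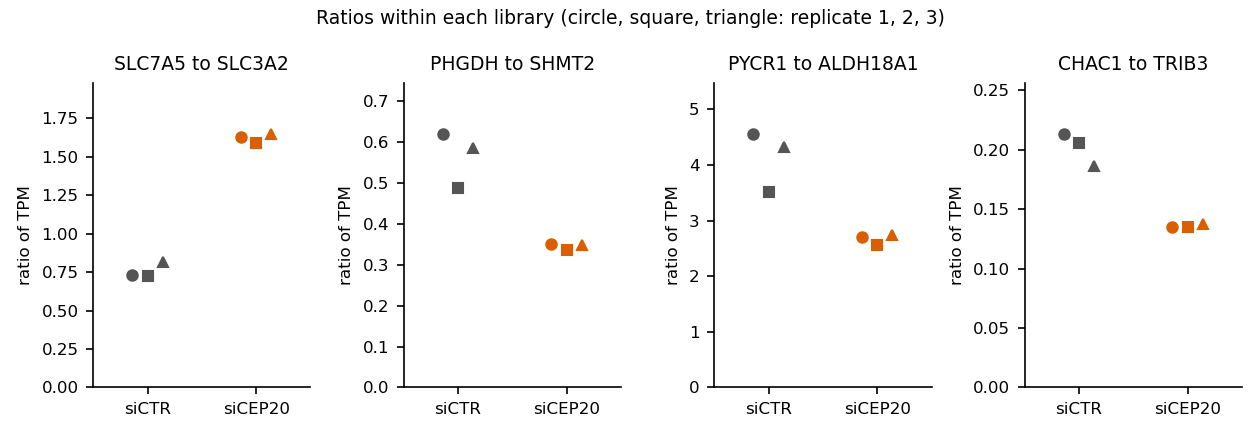
Ratio of the TPM of 2 genes within each library (y axis, from 0), siCTR in grey and siCEP20 in orange, circle, square and triangle for replicates 1, 2 and 3. SLC7A5 to SLC3A2 is above 1 in the 3 siCEP20 libraries and below 1 in the 3 siCTR libraries, and the other 3 ratios are lower in every siCEP20 library.

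SLC38A2, the amino acid-responsive SNAT2 carrier of small neutral amino acids, was at 259.5, 283 and 318 TPM in siCTR and 346, 344 and 337 TPM in siCEP20 libraries. It was higher in each siCEP20 library (log2 fold change 0.26, SE 0.07, limma adjusted p = 0.02261), but the call was lost under 8 of the 15 alternatives tried. SLC7A1, which carries arginine and lysine, was at 63.9, 60.0 and 70.5 TPM against 70.7, 74.9 and 73.0 TPM and did not pass (log2 fold change 0.17, limma adjusted p = 0.09087). SLC1A4, the ASCT1 carrier of alanine and serine, had the second lowest control mean of the 35 genes, at 21.6 ± 0.592 TPM against 19.9 ± 1.55 TPM in siCEP20 cells (SD, n = 3, log2 fold change -0.11, limma adjusted p = 0.2989). SLC1A5, the ASCT2 glutamine carrier, was at 416 ± 43.1 and 414 ± 18.7 TPM (SD, n = 3), with an interval from -0.18 to 0.18 (limma adjusted p = 0.991). The sum over the 6 transporters was 2748 ± 107 and 2776 ± 91.7 TPM (SD, n = 3), so the changes of SLC7A5 and SLC3A2 largely cancelled in it.

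The tRNA group contains 12 cytosolic synthetases and XPOT, the exportin that carries tRNA out of the nucleus. All 13 had log2 fold changes below 0, from -0.42 to -0.05, with TARS1 turning positive when siCEP20 1 was left out. By limma 6 fell and 0 rose, where 13.2% of all 14778 tested genes were lower and 30.2% higher. With median-of-ratios scaling 12 fell and 0 rose, against 3185 lower and 2963 higher of all tested genes. At an unadjusted p under 0.05, 7 fell and 0 rose, against 2335 lower and 5293 higher of all tested genes. Their summed level went from 2883 ± 74.2 to 2558 ± 114 TPM (SD, n = 3), 88.7% of control. LARS1, which charges leucine and also senses it for mTORC1, was at 86.4, 96.4 and 89.3 TPM in siCTR and 71.9, 63.8 and 67.1 TPM in siCEP20 libraries. The groups were clearly separate, and its log2 fold change of -0.42 (SE 0.07, limma adjusted p = 0.002129) was the lowest of the group.

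WARS1, the tryptophan enzyme and itself induced by interferon gamma, was at 282, 321 and 278 TPM in siCTR and 229, 234 and 230.2 TPM in siCEP20 libraries. The siCEP20 values were nearly identical and all below the controls (log2 fold change -0.34, SE 0.06, limma adjusted p = 0.003535). YARS1, the tyrosine enzyme, went from 190.1, 176 and 223 TPM to 143, 152 and 158 TPM (log2 fold change -0.37, SE 0.09, limma adjusted p = 0.01139). It too was lower in every siCEP20 library, though its controls spread more widely.

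XPOT fell from 97.3 ± 5.87 to 81.1 ± 1.53 TPM (SD, n = 3, log2 fold change -0.26, limma adjusted p = 0.01126). SARS1, the serine enzyme, fell from 194 ± 5.15 to 166 ± 7.31 TPM (SD, n = 3, log2 fold change -0.22, limma adjusted p = 0.01308). IARS1, the isoleucine enzyme, fell from 286 ± 13.6 to 251 ± 9.16 TPM (SD, n = 3, log2 fold change -0.19, limma adjusted p = 0.02629), a call lost under 6 of the 15 alternatives. Each of these 3 had no overlap between groups.

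The other 7 synthetases did not pass, and their log2 fold changes ran from -0.16 to -0.05. MARS1, the methionine enzyme, lay at the threshold, with 285, 282 and 297 TPM in siCTR and 252, 272 and 256 TPM in siCEP20 libraries (log2 fold change -0.15, limma adjusted p = 0.05025). AARS1, the alanine enzyme and the most abundant of the 12, was also lower in every siCEP20 library, at 468 ± 6.76 against 439.9 ± 20.1 TPM (SD, n = 3, log2 fold change -0.09, limma adjusted p = 0.1768). For GARS1, CARS1, NARS1, EPRS1 and TARS1, which charge glycine, cysteine, asparagine, glutamate with proline, and threonine, the groups overlapped. TARS1 was at 168, 177 and 201 TPM in siCTR and 123, 188 and 185 TPM in siCEP20 libraries. A single library, siCEP20 1, set its negative sign, and without it the log2 fold change was 0.04. With median-of-ratios scaling 11 of the 12 synthetases were lower and 0 higher, so the number that fell depended on the scaling. Under none of the 15 alternatives did a synthetase of the 12 pass the threshold as higher.

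The remaining cytosolic synthetases and the scaffold proteins of the multi-synthetase complex were counted as a list of their own. Of all tested genes 30.2% were higher and 13.2% lower. Among these 11 genes 4 were higher and 1 lower, with a median of 0.21 (2 higher and 1 lower with median-of-ratios scaling, median 0.06). The counts without that scaling lie near the shares of all tested genes and say nothing particular about the list. The lower gene was EEF1E1, a scaffold subunit also called AIMP3, at 63.5, 61.9 and 66.8 TPM in siCTR and 41.0, 44.7 and 41.7 TPM in siCEP20 libraries (log2 fold change -0.58, SE 0.06, limma adjusted p = 0.000337). QARS1, the glutamine enzyme, rose from 125 ± 0.218 to 164 ± 10.1 TPM (SD, n = 3, log2 fold change 0.40, limma adjusted p = 0.001277). AIMP2, another scaffold subunit, rose from 103 ± 2.55 to 126 ± 0.373 TPM (SD, n = 3, log2 fold change 0.29, limma adjusted p = 0.002693).

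Taking the 11 subunits of the multi-synthetase complex as a set, a grouping made after their values were seen, 3 were higher (KARS1, QARS1 and AIMP2), 3 lower (IARS1, LARS1 and EEF1E1) and 5 did not pass. LARS1 to EPRS1, both in that complex, went from a ratio of 0.987, 1.02 and 0.914 in siCTR to 0.812, 0.684 and 0.763 in siCEP20 libraries. Of all tested genes 30.2% were higher and 13.2% lower, and whether the complex differs from them was not tested. Its subunits lay on both sides of 0, from -0.58 to 0.40 on the log2 scale. With median-of-ratios scaling 2 of the 11 were higher and 5 lower, against 2963 higher and 3185 lower of all 14778 tested genes.

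Of the secreted and surface targets neither passed without rescaling. STC2, a secreted glycoprotein induced by ATF4, was at 139.7 ± 12.6 and 134 ± 4.27 TPM (SD, n = 3, log2 fold change -0.05, 95% interval -0.22 to 0.12). With median-of-ratios scaling STC2 was lower (log2 fold change -0.20, limma adjusted p = 0.04214). VLDLR, a lipoprotein receptor, was at 23.0, 15.6 and 16.8 TPM in siCTR and 17.5, 19.7 and 19.2 TPM in siCEP20 libraries. Its first control library was the highest of the 6, and its log2 fold change of 0.04 turned to -0.10 with median-of-ratios scaling (limma adjusted p = 0.8198 without it).

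In the levels of the control cells the 35 genes were far from uniform. SLC3A2 was the most abundant, at 1114 ± 41.5 TPM (SD, n = 3), above 99.2% of tested genes, followed by SLC7A5 at 845 ± 44.8, ATF4 at 681 ± 137 and CEBPB at 599 ± 29.7 TPM. Neighbours in that order such as SLC7A5 and ATF4 lay little more than the SD of ATF4 apart. VLDLR at 18.4 ± 3.95 TPM and SLC1A4 at 21.6 ± 0.592 TPM were the lowest. In siCEP20 cells SLC7A5 stood first at 1192 ± 46.5 TPM and SLC3A2 at 734 ± 29.2 TPM (SD, n = 3).

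The libraries of a group did not contribute evenly. In 19 of the 35 genes siCTR 2 was the lowest control library (54.3%), against 25.7% of all tested genes, and these included ATF4, ASNS, PHGDH, PSAT1 and PYCR1. In 24 genes siCEP20 1 was the lowest of its group (68.6%, against 46.4% of all tested genes). The median coefficient of variation of the 35 genes was 7.56% in siCTR and 4.02% in siCEP20. Over all tested genes at least as abundant as the lowest of the 35 it was 6.48% and 5.47%, a difference in the same direction. Without siCTR 2 the number past the fold limit was 5, and without siCEP20 1 it was 2 (PHGDH and PYCR1). What made these libraries lower was not tested.

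Other genes of the pathway moved in both directions. Counts in the lists below are given beside all tested genes, of which 30.2% were higher and 13.2% lower. A count near those shares says nothing particular about its list. Of 21 genes for the eIF2 kinases, eIF2, its exchange factor eIF2B and the feedback phosphatases, 5 were higher, 3 lower and 13 did not pass, with a median of 0.10. With median-of-ratios scaling the balance turned, to 3 higher and 7 lower with a median of -0.04. The balance of all tested genes turned as well, to 2963 higher and 3185 lower. PPP1R15A, which encodes GADD34, the stress-induced subunit that directs dephosphorylation of eIF2, was at 211, 203 and 203 TPM in siCTR and 287, 303 and 317 TPM in siCEP20 libraries. It rose in every siCEP20 library (log2 fold change 0.55, SE 0.05, limma adjusted p = 0.0001935), opposite in sign to most of the 35 genes. EIF2S1, the eIF2 subunit that the kinases phosphorylate, fell from 64.8 ± 2.11 to 45.9 ± 1.63 TPM (SD, n = 3, log2 fold change -0.49, limma adjusted p = 0.0005628). OMA1, the mitochondrial protease that relays stress to eIF2 through DELE1, rose from 7.63 ± 0.246 to 12.4 ± 0.944 TPM (SD, n = 3, log2 fold change 0.63, limma adjusted p = 0.001109).

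Of 29 further tested genes linked to ATF4, out of 30 listed, 6 were higher, 7 lower and 16 did not pass, with a median of -0.05 (3 higher and 8 lower with median-of-ratios scaling, median -0.20). JDP2, a basic leucine zipper factor, rose from 28.9 ± 0.822 to 46.3 ± 5.30 TPM (SD, n = 3, log2 fold change 0.65, limma adjusted p = 0.0008709). VEGFA, the angiogenic growth factor, rose from 120.4, 112 and 134 TPM to 174, 192 and 236 TPM (log2 fold change 0.70, limma adjusted p = 0.001845). GOT1, the aspartate transaminase of the cytosol, fell from 144 ± 9.54 to 111 ± 3.75 TPM (SD, n = 3, log2 fold change -0.37, limma adjusted p = 0.002546). The list held changes in both directions with and without that scaling.

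Other enzymes of serine, one-carbon, proline and glutamine metabolism were 5 higher, 5 lower and 7 not past the threshold, of 17 tested out of 19 listed, with a median of -0.06. With median-of-ratios scaling 2 were higher and 8 lower, with a median of -0.21. PYCR3, which encodes another pyrroline-5-carboxylate reductase, went from 23.0, 21.5 and 24.8 TPM to 16.7, 17.2 and 15.4 TPM (log2 fold change -0.47, SE 0.09, limma adjusted p = 0.00319). It was lower in every siCEP20 library. BCAT2, the mitochondrial branched-chain aminotransferase, fell from 82.3 ± 4.05 to 66.3 ± 0.872 TPM (SD, n = 3, log2 fold change -0.31, limma adjusted p = 0.004412).

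Among 20 genes for mitochondrial synthetases and the amidotransferase that makes glutaminyl-tRNA there, 4 were higher, 2 lower and 14 did not pass, with a median of 0.10. With median-of-ratios scaling the balance turned, to 1 higher and 5 lower with a median of -0.03, as it did over all tested genes. Of the 3 amidotransferase subunits GATB and QRSL1 rose, and GATC, named after its values were seen, did not pass (30.1 ± 4.57 against 32.0 ± 5.34 TPM, SD, n = 3, log2 fold change 0.08, limma adjusted p = 0.6678). GATB rose from 12.7 ± 0.517 to 21.4 ± 1.68 TPM (SD, n = 3, log2 fold change 0.71, limma adjusted p = 0.0004715). QRSL1 rose from 9.95 ± 0.549 to 12.4 ± 0.505 TPM (SD, n = 3, log2 fold change 0.30, limma adjusted p = 0.0235), a call that was lost with median-of-ratios scaling. CARS2, the mitochondrial cysteine enzyme, fell from 47.8 ± 2.25 to 38.5 ± 0.184 TPM (SD, n = 3, log2 fold change -0.30, limma adjusted p = 0.006031).

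Targets of ATF6 and XBP1, which answer misfolded protein in the endoplasmic reticulum through branches separate from eIF2, gave 6 lower and 0 higher of 18 by limma, with a median of -0.18 (12 lower and 0 higher with median-of-ratios scaling). At an unadjusted p under 0.05 the counts were 9 lower and 1 higher, against 2335 lower and 5293 higher of all 14778 tested genes. SDF2L1, a luminal co-chaperone, went from 263, 265 and 237 TPM in siCTR to 128, 141 and 132 TPM in siCEP20 libraries (log2 fold change -0.93, SE 0.07, limma adjusted p = 5.445e-05). EDEM1, which directs glycoproteins to degradation, went from 52.1 ± 5.08 to 26.6 ± 1.70 TPM (SD, n = 3, log2 fold change -0.94, limma adjusted p = 0.0001557). CRELD2, a secreted endoplasmic reticulum stress protein, went from 246 ± 34.5 to 147 ± 3.68 TPM (SD, n = 3, log2 fold change -0.73, limma adjusted p = 0.0006955). The estimates of SDF2L1 and EDEM1 lay below those of all 35 genes, and that of CRELD2 below all but PHGDH (-0.76), differences that were not tested.

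Interferon-induced genes were read because WARS1 is among the genes that interferon gamma induces. Of 12 tested out of 19 listed, 2 were higher, 5 lower and 5 did not pass, with a median of -0.06 (1 higher and 5 lower with median-of-ratios scaling, median -0.18). PSMB9, an immunoproteasome subunit, fell from 20.7, 22.5 and 22.7 TPM to 8.34, 9.18 and 11.7 TPM (log2 fold change -1.11, SE 0.12, limma adjusted p = 0.000295). IFI6 fell from 17.8, 17.8 and 14.9 TPM to 8.84, 9.08 and 9.07 TPM (log2 fold change -0.83, limma adjusted p = 0.000372). OAS3, which makes the activator of RNase L, fell from 17.4 ± 0.706 to 11.4 ± 0.781 TPM (SD, n = 3, log2 fold change -0.56, limma adjusted p = 0.001247). Whether these genes and WARS1 share a source of their lower levels was not tested.

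**Figure D4:**
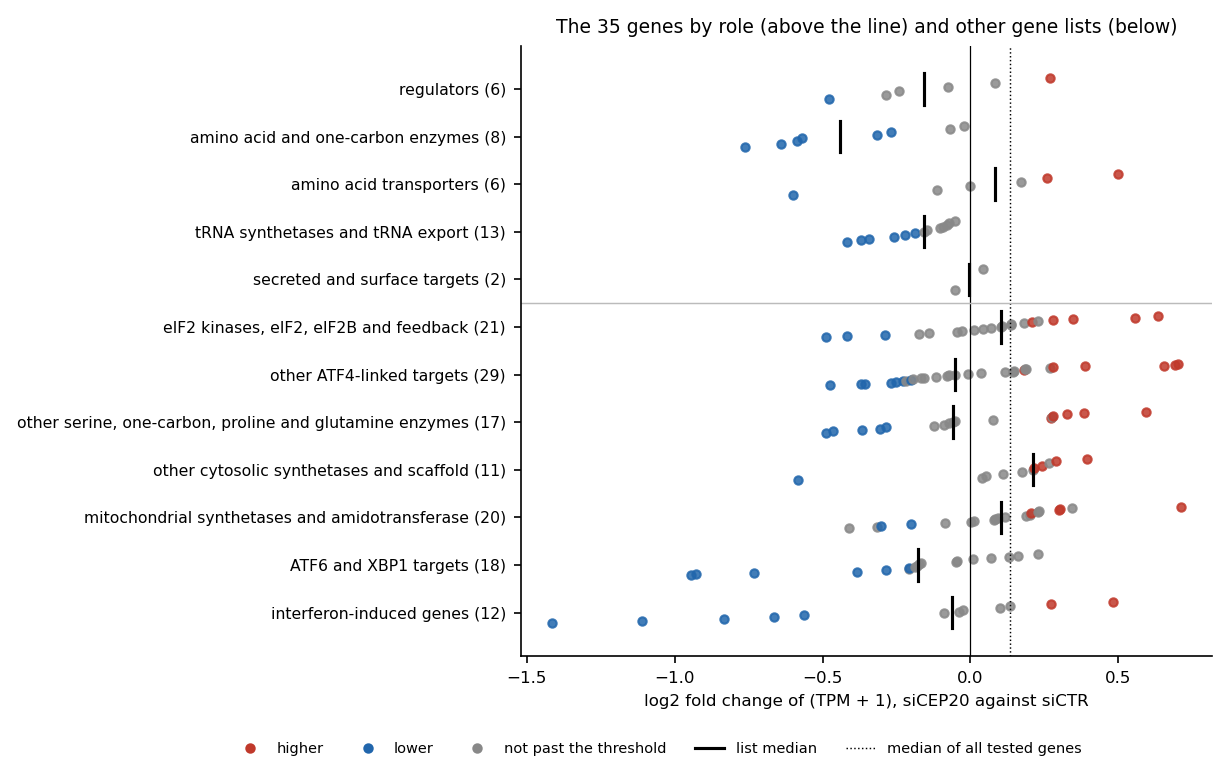
Log2 fold change of (TPM + 1), siCEP20 against siCTR (x axis), for each tested gene of the 5 roles (above the grey line) and of 7 other gene lists (below it), with the number of genes in brackets, red and blue for higher and lower at a limma adjusted p under 0.05, a black bar for the median of each list and a dotted line for the median of all tested genes (0.13). The enzymes have the lowest median at -0.44, and the other cytosolic synthetases and scaffold the highest at 0.21.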

How the data were processed

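Poly(A) RNA purified from total RNA of 6 A549 samples (3 siCTR, 3 siCEP20, grouped by their titles) was sequenced. The methods describe a strand-marking (dUTP) library, and the labels another kit without saying whether it marks strand. Per the submitters' processing notes and the methods, the authors used fastp 0.20.1, HISAT2 2.1.0 (hg38, default settings) and StringTie 2.0, and deposited TPM values for each Ensembl gene. The annotation release and the strand setting of StringTie are not given in the sources used here. TPM holds no read counts, so depth is unknown, the count test named in the methods could not be run, and precision rests on the 3 libraries of a group. No column was left out.

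Here genes were named with GENCODE release 44. Those averaging 1 TPM or more over the 6 libraries were tested with limma 3.58.1 in R 4.3.3 on log2(TPM + 1) (eBayes with a trend), with Benjamini-Hochberg adjustment over all of them. This pseudocount slightly understates folds of low genes. A fold change over 1.5 or under 0.67 was an added limit. The fit was checked on simulated data. Motifs were searched on both strands of RefSeq promoters.

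The 35 genes and the other lists were chosen with earlier results of these data known. The text names all 35, CEP20, and the 3 genes of each list with the smallest adjusted p, except that some items are not reported here. Others (KARS1, GATC, the ratios, the complex) were chosen after their values were seen. Alternatives covered the pseudocount, filters, scaling, trend, replicate block, length and GC, protein-coding genes, the fold limit and single libraries. No unit other than TPM was read, and growth medium differs between the labels and the methods.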

Additional observations from a re-analysis of the deposited data

How the results depend on the processing

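Of 525 fits (35 genes, 15 alternatives), 468 kept direction and side of the threshold, 17 lost a call, 23 gained one and 17 changed sign. CHAC1, ASNS, PHGDH, PSAT1, PSPH, MTHFD2, PYCR1, SLC7A5, SLC3A2, WARS1, LARS1 and XPOT kept theirs under all 15. With median-of-ratios scaling 1 gene was higher and 26 lower, the median log2 fold change was -0.30, and TRIB3 (-0.0684) and VLDLR (-0.10) changed sign. The scaling itself lowers every fold change, by the shift of all genes. With quantile normalization 1 gene (SLC7A5) was called higher with the fold limit, and SLC1A5 (0.0605) and VLDLR (-0.10) changed sign. With the length and GC correction 2 were called lower (PHGDH and PYCR1), and ATF4 (0.005), SLC1A5 (0.0155) and VLDLR (-0.10) changed sign. The cause of these was not tested. A fold change of at least 2 left 0 called lower.

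Leaving out each library gave 2 to 4 higher, 13 to 15 lower, 2 to 5 called lower with the fold limit, 0 called higher and a median from -0.18 to -0.10. The log2 fold changes that changed sign ranged over these fits from -0.254 to 0.0269 for ATF4 (0.0023 without siCTR 1), from -0.0853 to 0.0633 for SLC1A5, from -0.0529 to 0.005 for ALDH18A1, from -0.0614 to 0.203 for VLDLR, from -0.111 to 0.0164 for STC2 and from -0.261 to 0.0412 for TARS1.

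Samples with the same replicate number did not deviate together in every pair (correlations 0.157, -0.0614 and -0.0623), so a pairing by number was not seen. With 3 libraries a group, these correlations cannot show that there was none. With the replicate block 3 genes were higher and 15 lower, and 4274 higher and 1857 lower over all genes. Depth could not be examined.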
